A study of Callithrix jacchus with 20 samples.

Results

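Cells make cholesterol from acetyl-CoA through the mevalonate pathway, take it up from outside and export the surplus, and 33 genes of these steps were followed here in marmoset induced pluripotent stem cells (cjiPSCs) on their way to primordial germ cell-like cells (cjPGCLCs). The genes were listed by name and role, with no threshold on measured values, by a choice made when earlier results of these data were known. They are 8 enzymes of the mevalonate and prenyl steps, 12 enzymes from squalene to cholesterol, 5 regulators of the SREBP system, 2 genes of uptake and transport, 3 enzymes of fatty acid synthesis and 3 genes of export and of the liver X receptor (LXR) response. Of the 33 genes 32 were found in the table of 25102 genes, and all 32 were among the 15797 genes tested. DHCR7 was not analysed here, so 19 of the 20 enzymes of the synthesis pathway are described.

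Poly(A) RNA of a single clonal line, DPZ_cjiPSC2, was sequenced in 20 libraries from 10 conditions with 2 biological replicates each, so no result extends to other lines or animals. The cjiPSCs were kept either in TESR or in cjPSCM, a medium on an N2B27 base with CHIR99021, A419259, IWR-1, vitamin C, LIF, TGFβ and FGF2. Cells from each medium were turned for 24 h into precursors of mesendoderm (pre-ME) on vitronectin in Advanced RPMI with B-27, the ROCK inhibitor Y-27632 and 3 μM CHIR, an inhibitor of GSK3, with 100 ng/ml Activin A (Act A, + ActA) or without it (− ActA). Pre-ME of cjPSCM cultures were aggregated into embryoid bodies with BMP4, LIF, SCF and EGF, and on day 4 double-positive cells (cjPGCLCs) and double-negative cells (soma) were sorted. The labels name INTa6 and EpCAM, or CXCR4 and EpCAM, as the sort markers, and the design text names CXCR4 and INTα6. The labels of the sorted cells also write the medium as cjEPSCM, which is taken here as cjPSCM. The TESR pre-ME libraries carry sample numbers set apart from those of all other libraries. Whether they formed a batch was not tested. Such a batch could not be told apart from medium or stage where they are compared with other libraries.

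Synthesis of cholesterol is controlled mainly by SREBP2, a membrane-bound transcription factor encoded by SREBF2, which its escort SCAP carries to the Golgi for activation when sterols are scarce. INSIG1 and INSIG2 hold SCAP back when sterols are plentiful. Oxidised derivatives of cholesterol activate LXR, whose known targets include the exporters ABCA1 and ABCG1, the ubiquitin ligase MYLIP, which sends lipoprotein receptors to degradation, and SREBF1, which encodes a relative of SREBP2 that mainly drives fatty acid synthesis.

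Between 4784964 and 22067099 reads were counted on genes per library, with a median of 11599813. Levels below are the counts that the authors divided by a size factor of the library, called normalised counts, and 3 reads stand for 1.40 to 6.92 of them. The replicates of cjPSCM cjiPSCs stood further apart than those of any other condition, with an SD over genes of the log2 difference of 0.959 against 0.311 to 0.619, and COL1A1, a mesenchymal collagen, differed from 86.7 to 1291 normalised counts between them. Reads outside annotated genes made up 10.6% and 13.3% in TESR cjiPSCs and 12.2% and 19.3% in cjPSCM cjiPSCs, against 17.2% to 23.2% in all other libraries. The labels fitted CXCR4, 1 of the named sort markers, which lay at 1128 to 1317 normalised counts in cjPGCLCs and at 49.5 to 76.1 in soma. EPCAM, at 472 to 2237 against 140 to 167, and ITGA6, the gene of INTα6, at 1206 to 2277 against 149 to 218, differed too. These levels thus do not show which markers were sorted on. The 5 listed cjPGCLC markers were SOX17, TFAP2C, PRDM1, NANOS3 and DPPA3. They summed to 1340 to 1391 in cjPGCLCs with ActA, against 267 to 340 in soma. Without ActA their sum was 2594 to 2648, against 168 to 234 in soma. In cjPSCM cjiPSCs it was 1247 to 2231, so with ActA the cjPGCLCs did not stand above the stem cells. TBXT, a defining marker of mesendoderm, was at or below 1.67 in all 4 cjPSCM pre-ME libraries, where CDX1, another gene induced by CHIR, reached 147 to 678.

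The mean level of the synthesis enzymes was highest in TESR cjiPSCs, lower in cjPSCM cjiPSCs, lower again in pre-ME and lowest at day 4, but single enzymes had other orders. For this summary, the mean over the 19 enzymes of the log2 level, taken relative to each gene's mean over the 20 libraries, was computed for every library. It was 0.93 and 1.13 in the replicates of TESR cjiPSCs and 0.62 and 0.63 in those of cjPSCM cjiPSCs. The 4 TESR pre-ME libraries lay between -0.05 and 0.14, and the 4 cjPSCM pre-ME libraries between -0.23 and 0.09. The 8 sorted libraries lay between -0.48 and -0.24. The highest of them, soma − ActA replicate 1 at -0.24, lay next to the lowest pre-ME library, cjPSCM pre-ME + ActA replicate 1 at -0.23, and with a pseudocount of 10 in place of 1 their order turned, so that these stages were not clear of each other. This summary is a description and was not tested. HMGCS1, MSMO1, SC5D and LBR, for example, were lowest in cjPSCM pre-ME + ActA, at means of 2522, 793, 285 and 631 normalised counts, and their day 4 means were 2979 to 4473, 1125 to 1451, 360 to 488 and 1202 to 1401.

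**Figure D1:**
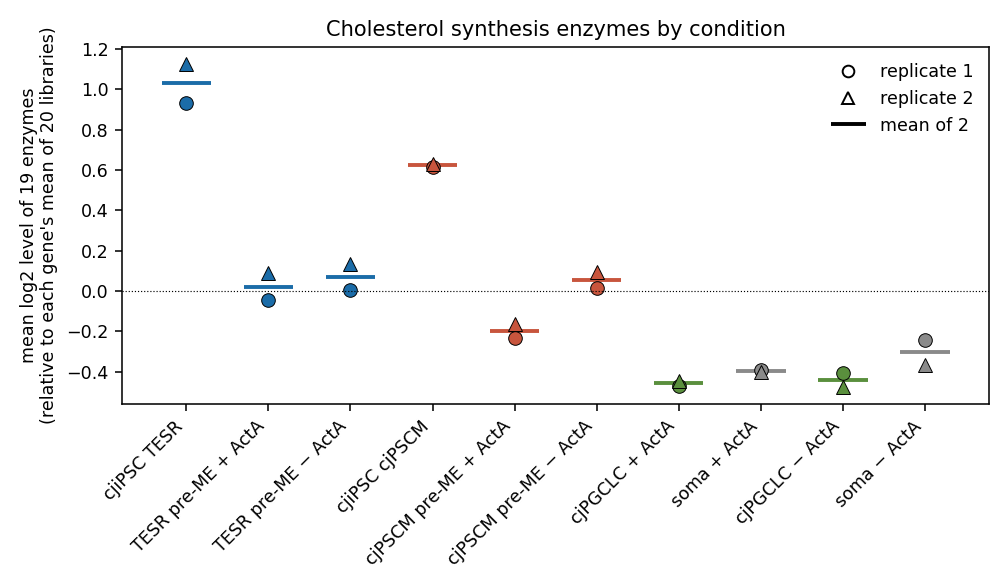
The mean log2 level of 19 cholesterol synthesis enzymes (vertical axis, relative to each gene's mean over 20 libraries) is plotted for the 10 conditions, with a circle and a triangle for replicates 1 and 2 and a bar for their mean. TESR cjiPSCs are highest at 0.93 and 1.13, and all 8 sorted libraries of day 4 lie between -0.48 and -0.24.

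The change from cjiPSCs to pre-ME asks what 24 h of pre-induction did to the pathway, and between 22 and 26 of the 32 genes were called lower in each of the 4 comparisons. In TESR cultures with ActA, 26 of the 32 genes fell and 1 rose at an adjusted p under 0.05 (edgeR quasi-likelihood test), in a comparison in which 34.5% of all 15797 genes were called, 17.3% higher and 17.1% lower. In TESR cultures without ActA 26 fell and none rose, against 36.6% of all genes called, 17.4% higher and 19.2% lower. In cjPSCM cultures with ActA 25 fell and none rose, against 17.7% called, 7.42% higher and 10.3% lower, and without ActA 22 fell and 1 rose, against 38.0% called, 17.9% higher and 20.1% lower. The median log2 fold change of the 32 genes was -0.86, -0.95, -0.82 and -0.67 in this order, and that of all genes tested was -0.0166, -0.0343, -0.000392 and 0.0279. The comparisons with and without ActA share the cjiPSC libraries of their medium, but those in TESR and in cjPSCM share none. Of the genes that fell with ActA, 22 did so in both media, which is 84.6% of the 26 in TESR and 88.0% of the 25 in cjPSCM. Without ActA 21 genes fell in both media, 80.8% of the 26 and 95.5% of the 22. Over all genes tested, the genes lower in both media made up 32.3% and 53.7% of those lower in TESR and in cjPSCM with ActA, and 58.2% and 55.6% without. Since most members were called lower in each medium, a large overlap follows from these counts alone, and no agreement is read from it. Pre-induction also exchanged the basal medium, the matrix and the growth factors, so its parts cannot be told apart. A share of reads outside genes below that of all pre-ME was seen in TESR cjiPSCs and cjPSCM cjiPSC replicate 1, not replicate 2. The part of this share was not tested. In bulk RNA, fewer cells of a type and less RNA per cell cannot be told apart either. Marker sums moved at this step too. In TESR cjiPSCs 3 listed markers of amnion or surface ectoderm summed to 858 to 1361. In their pre-ME the sum was 1502 to 1756 with ActA and 630 to 707 without. In cjPSCM cultures it was 437 to 690.4, then 913 to 966 and 685 to 747. The 6 somatic and mesenchymal markers summed to 1498 to 2417 in TESR cjiPSCs, against 536 to 749 without ActA, and overlapped in the other comparisons. The part of such cells in the fall was not tested.

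Few of these changes were large, with counts near those that the shares of all genes would give. Past a log2 fold change of 2 as well, the threshold of the study, 3 of the 32 genes were called in TESR cultures with ActA. Of these NPC1L1 was higher, and the share of all genes was 6.96%. Without ActA 2 were called, against 7.86%. In cjPSCM cultures it was 2 with ActA, against 3.06%, and 1 without, against 5.27%. The other calls thus stand for changes of a smaller size.

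Of the 8 enzymes of the mevalonate and prenyl steps, 7, 6, 5 and 4 fell in the 4 comparisons, in the order above. HMGCS1, the enzyme that makes HMG-CoA, was at 9306 and 8383 normalised counts in TESR cjiPSCs, at 3527 and 4015 in their pre-ME with ActA and at 3822 and 4429.7 in those without. The groups did not overlap, and the log2 fold change was -1.22 (SE 0.15, adjusted p = 1.24e-05) with ActA and -1.09 (SE 0.14, adjusted p = 3.4e-05) without. In cjPSCM cultures HMGCS1 was at 5117 and 6421 in cjiPSCs and at 2282 and 2761 in pre-ME with ActA, a log2 fold change of -1.18 (SE 0.15, adjusted p = 4.33e-05). Without ActA its pre-ME levels were 4468 and 5111, just under both cjiPSC libraries, and the log2 fold change of -0.23 did not pass the test. MVK, mevalonate kinase, had the deepest fall of this group in TESR cultures, from 309 and 487 to 93.6 and 119 with ActA (log2 fold change -1.88, SE 0.20, adjusted p = 3.67e-06). FDPS, which makes farnesyl diphosphate, fell in all 4 comparisons by 0.92 to 1.14 on the log2 scale. ACAT2, the thiolase at the entry of the pathway, also fell in all 4, by 0.74 to 1.00 on the log2 scale.

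IDI1, the isomerase of the prenyl units, fell in 3 of the 4 comparisons by 0.66 to 0.70, and its log2 fold change in cjPSCM cultures without ActA was -0.14. MVD, the decarboxylase that makes isopentenyl diphosphate, fell by 0.84 and 1.00 on the log2 scale without ActA in TESR and in cjPSCM. With ActA its log2 fold change was -0.74 in TESR, a call that was lost without TESR cjiPSC replicate 2 (-0.31, adjusted p = 0.112), and -0.54 in cjPSCM, which did not pass. PMVK, phosphomevalonate kinase, was called lower only in TESR with ActA (-0.53, adjusted p = 0.0101), and this call was lost without TESR cjiPSC replicate 2 (-0.41) or TESR pre-ME + ActA replicate 2 (-0.49). GGPS1 stood apart from its group. It makes geranylgeranyl diphosphate, a lipid anchor of proteins on a branch that leaves the sterol pathway, and its log2 fold changes of 0.32, 0.05, 0.14 and 0.49 did not pass the test in any of the 4 comparisons.

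All 11 enzymes from squalene onwards fell in TESR cultures with ActA, and 10, 10 and 9 of them fell in the other comparisons, in the order above. FDFT1, squalene synthase, fell in all 4 by 0.74 to 0.98 on the log2 scale. SQLE, squalene epoxidase, was at 5065 and 6503 in TESR cjiPSCs and at 2978 and 3373 in their pre-ME with ActA (log2 fold change -0.85, SE 0.12, adjusted p = 7.91e-05). In cjPSCM cultures SQLE went from 4511 and 4708 to 2982 and 3060.2 with ActA (-0.59, SE 0.12, adjusted p = 0.0033), and the groups were clear of each other in both media. LSS, which closes the rings to lanosterol, fell by 0.80 to 0.88 in all 4 comparisons. CYP51A1, lanosterol demethylase, was at 3894 and 3766 in TESR cjiPSCs and at 1249 and 1479 in pre-ME without ActA, a log2 fold change of -1.48 (SE 0.13, adjusted p = 5.67e-07). In cjPSCM cultures it fell by 1.05 with ActA and by 0.73 without.

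HSD17B7, a ketosteroid reductase of sterol demethylation, fell the most of the sterol enzymes in TESR cultures without ActA. It was at 2049.8 and 2719 in cjiPSCs, at 618 and 727 in pre-ME with ActA and at 559 and 641 in those without, with log2 fold changes of -1.81 (SE 0.15, adjusted p = 2.55e-07) and -1.97 (SE 0.15, adjusted p = 9.72e-08). Its partners in that step, MSMO1 and NSDHL, fell in TESR cultures by 1.19 and 0.72 with ActA and by 1.00 each without. In cjPSCM cultures HSD17B7 fell from 1299.9 and 1087 to 595 and 579 with ActA and to 612 and 655 without. There MSMO1 was not called lower without ActA, nor NSDHL with ActA. The NSDHL call in cjPSCM without ActA was lost in at least 1 fit without a library. TM7SF2, a sterol reductase, fell in all 4 comparisons by 1.40 to 2.44 on the log2 scale, but its levels in TESR cjiPSCs, 214 and 451, differed between the replicates. LBR, which carries the same reductase activity and also anchors chromatin at the nuclear envelope, fell with ActA in TESR (-0.74, adjusted p = 0.000917) and in cjPSCM (-0.54, adjusted p = 0.0172). Without ActA LBR had a log2 fold change of -0.15 in TESR, which did not pass, and of 0.38 in cjPSCM (adjusted p = 0.0451). The 2 LBR calls in cjPSCM cultures were lost in single fits without a library. They were lost without cjPSCM pre-ME + ActA replicate 1 (-0.57) or 2 (-0.52), and without cjPSCM cjiPSC replicate 1 (0.33) or cjPSCM pre-ME − ActA replicate 1 (0.34) or 2 (0.45). EBP, the sterol isomerase, and SC5D, the sterol desaturase, were called lower in all 4 comparisons, with log2 fold changes of -0.89 to -0.40 and of -1.14 to -0.45. In cjPSCM cultures EBP lost its calls without cjPSCM pre-ME + ActA replicate 1 (-0.63), cjPSCM cjiPSC replicate 1 (-0.23) or cjPSCM pre-ME − ActA replicate 1 (-0.26), and SC5D lost that without ActA when cjPSCM cjiPSC replicate 1 (-0.42) or cjPSCM pre-ME − ActA replicate 1 (-0.34) was left out.

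**Figure D2:**
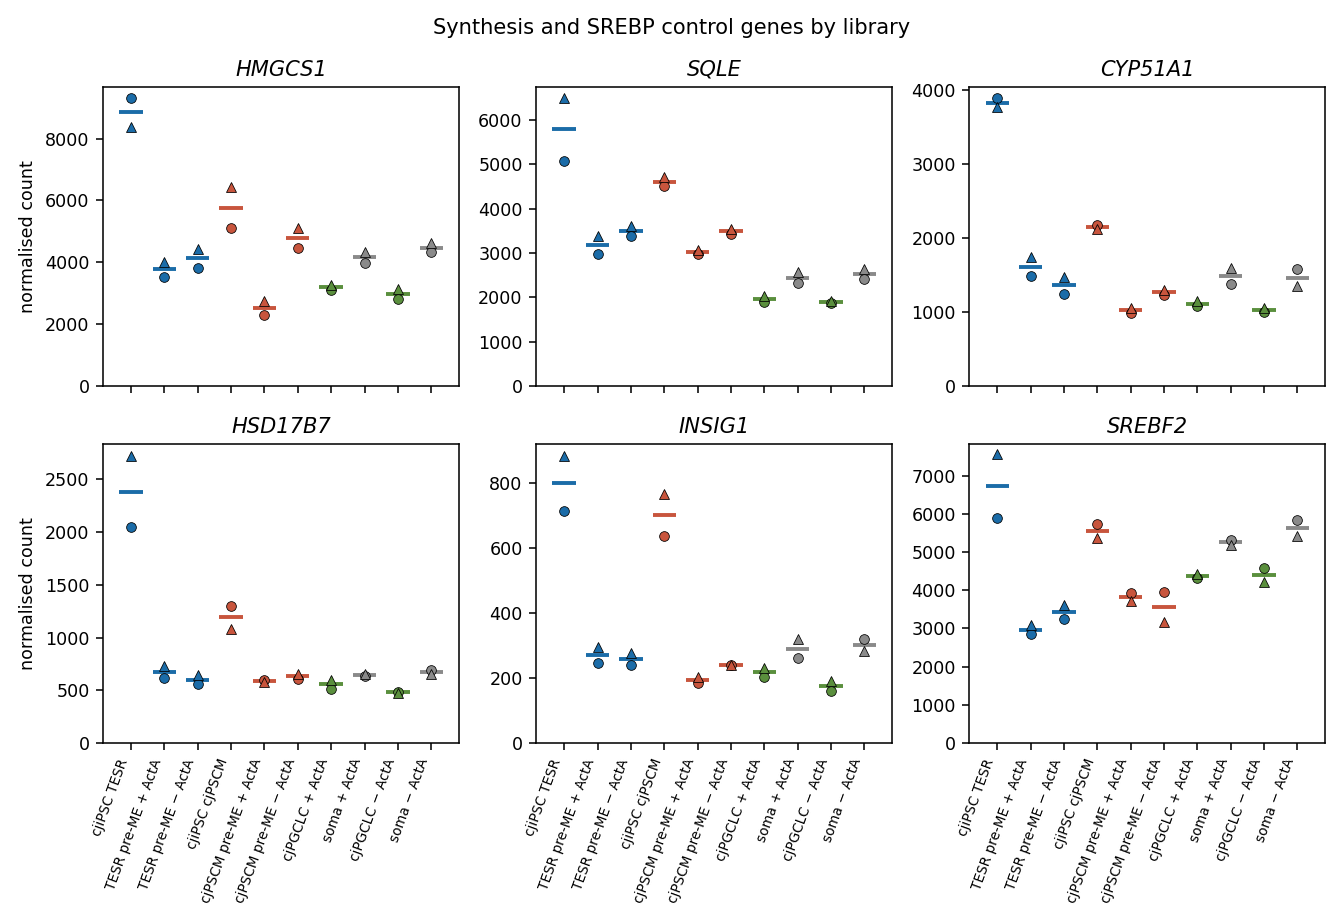
Normalised counts (vertical axes, from 0) of 6 genes are shown in each of the 20 libraries, with circles and triangles for replicates 1 and 2 and bars for the mean of each condition. In HMGCS1, SQLE, CYP51A1, HSD17B7 and INSIG1 the TESR cjiPSCs lie above all pre-ME and day 4 libraries, and SREBF2 lies at 4208 to 5844 at day 4, above all 8 pre-ME libraries at 2842 to 3942.

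Of the regulators, SREBF2, INSIG1 and SREBF1 were called lower in all 4 comparisons. SREBF2 was at 5881 and 7576 in TESR cjiPSCs and at 2842 and 3099.6 in pre-ME with ActA (log2 fold change -1.17, SE 0.14, adjusted p = 1.05e-05), and it fell by 0.96 without ActA. In cjPSCM cultures it fell by 0.52 with ActA and by 0.61 without. The call with ActA was lost without cjPSCM cjiPSC replicate 1 (-0.46) or cjPSCM pre-ME + ActA replicate 1 (-0.57) or 2 (-0.47). INSIG1, itself a target of SREBP2, was at 714 and 882 in TESR cjiPSCs, at 247 and 296 in pre-ME with ActA and at 241 and 277 in those without. In cjPSCM cultures INSIG1 went from 635 and 766 to 184 and 202 with ActA and to 239.9 and 239 without. All pre-ME libraries were thus below all cjiPSC libraries, and the 4 log2 fold changes were -1.54, -1.61, -1.84 and -1.51, with adjusted p-values of 3.09e-06, 1.84e-06, 2.29e-06 and 5.58e-06. INSIG2 was called lower only in cjPSCM with ActA (-0.84, adjusted p = 0.0382), a call lost without cjPSCM cjiPSC replicate 1 (-0.76) or cjPSCM pre-ME + ActA replicate 1 (-0.56). SCAP stayed between 952 and 1465 normalised counts in all 12 libraries of cjiPSCs and pre-ME. It was called lower only in cjPSCM without ActA, by 0.35 on the log2 scale, and not without cjPSCM cjiPSC replicate 1 (-0.29) or cjPSCM pre-ME − ActA replicate 2 (-0.22).

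Of all members ABCG1 had the largest estimated fall in all 4 comparisons, though its rank in TESR, from few reads, was not settled. This exporter, which hands cholesterol to lipoproteins, was at 19.8 and 8.93 normalised counts in TESR cjiPSCs and at 1.64 and 0.531 in pre-ME with ActA, where only 4 reads were counted in both libraries together. The ratio of the pooled levels was 15.7, with an exact 95% interval of 5.69 to 60.2 that covers counting error only. Without ActA 8 reads were left in TESR pre-ME, a ratio of 8.36 (3.88 to 20.6). In cjPSCM cultures ABCG1 went from 1204 and 379 to 44.2 and 54.8 with ActA and to 42.4 and 39.6 without, log2 fold changes of -4.01 (SE 0.52, adjusted p = 6.36e-05) and -4.24 (SE 0.51, adjusted p = 1.6e-05). The groups did not overlap in either medium. The TESR calls of ABCG1 (adjusted p = 0.00753 with ActA and 0.0151 without) were lost without TESR cjiPSC replicate 1 (adjusted p = 0.181 and 0.293) or without replicate 2 of the pre-ME (0.0653 and 0.136). Without cjPSCM cjiPSC replicate 1, the library with the higher level, the log2 fold changes in cjPSCM were -2.92 and -3.15, and both were still called.

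ABCA1, which loads cholesterol onto apolipoproteins, was at 2146 and 1386 in TESR cjiPSCs and at 475 and 418 in pre-ME without ActA (log2 fold change -1.98, SE 0.20, adjusted p = 2.06e-06). In the other 3 comparisons it fell by 1.41 to 1.71 on the log2 scale. MYLIP was at 43.5 and 41.7 in TESR cjiPSCs, at 27.4 and 26.5 in pre-ME with ActA, which did not pass (adjusted p = 0.205), and at 6.03 and 9.36 in those without (-2.43, SE 0.45, adjusted p = 0.000589). In cjPSCM cultures MYLIP fell from 312 and 107 to 40.1 and 54.8 with ActA and to 48.9 and 57.5 without, with log2 fold changes of -2.18 and -1.98. Without cjPSCM cjiPSC replicate 1 these falls were 1.17 (adjusted p = 0.0111) and 0.96 (adjusted p = 0.014). SREBF1 fell in all 4 comparisons, with log2 fold changes of -0.71 and -0.86 in TESR and of -1.14 and -1.86 in cjPSCM cultures. Genes of synthesis and of export thus fell at the same step.

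Of the genes for uptake and fatty acids, STARD4, a soluble carrier of sterols, was called lower in TESR without ActA (-0.75) and in cjPSCM with ActA (-0.96). The first call was lost without TESR cjiPSC replicate 1 (-0.38) or TESR pre-ME − ActA replicate 1 (-0.68), and the second without cjPSCM pre-ME + ActA replicate 1 (-0.83). NPC1L1, the intestinal importer of cholesterol, was the member that rose in TESR with ActA, from 1 and 1 reads to 20 and 16 reads. The ratio of its pooled levels was 12.1, with an interval of 3.11 to 103, and its log2 fold change of 3.41 lost the call without TESR cjiPSC replicate 1 (adjusted p = 0.179) or TESR pre-ME + ActA replicate 1 (0.0647). SCD, the desaturase that makes oleate, fell in all 4 comparisons by 0.64 to 0.95, and was at 9617 and 11135 in TESR cjiPSCs and at 5284 and 5369.6 in their pre-ME without ActA (adjusted p = 3.71e-05). FASN, fatty acid synthase, was called in 3 comparisons (-0.61, -0.60 and -0.91) and ACACA, acetyl-CoA carboxylase, in 3 (-0.64, -0.50 and -0.49). The FASN calls in TESR were lost without TESR cjiPSC replicate 2 or either pre-ME library (-0.64 to -0.31), and that in cjPSCM without cjPSCM pre-ME − ActA replicate 2 (-0.66). The ACACA call of TESR without ActA was lost without TESR cjiPSC replicate 1 or either pre-ME library (-0.53 to -0.33), and that of cjPSCM with ActA without cjPSCM cjiPSC replicate 2 or either pre-ME library (-0.49 to -0.31).

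**Figure D3:**
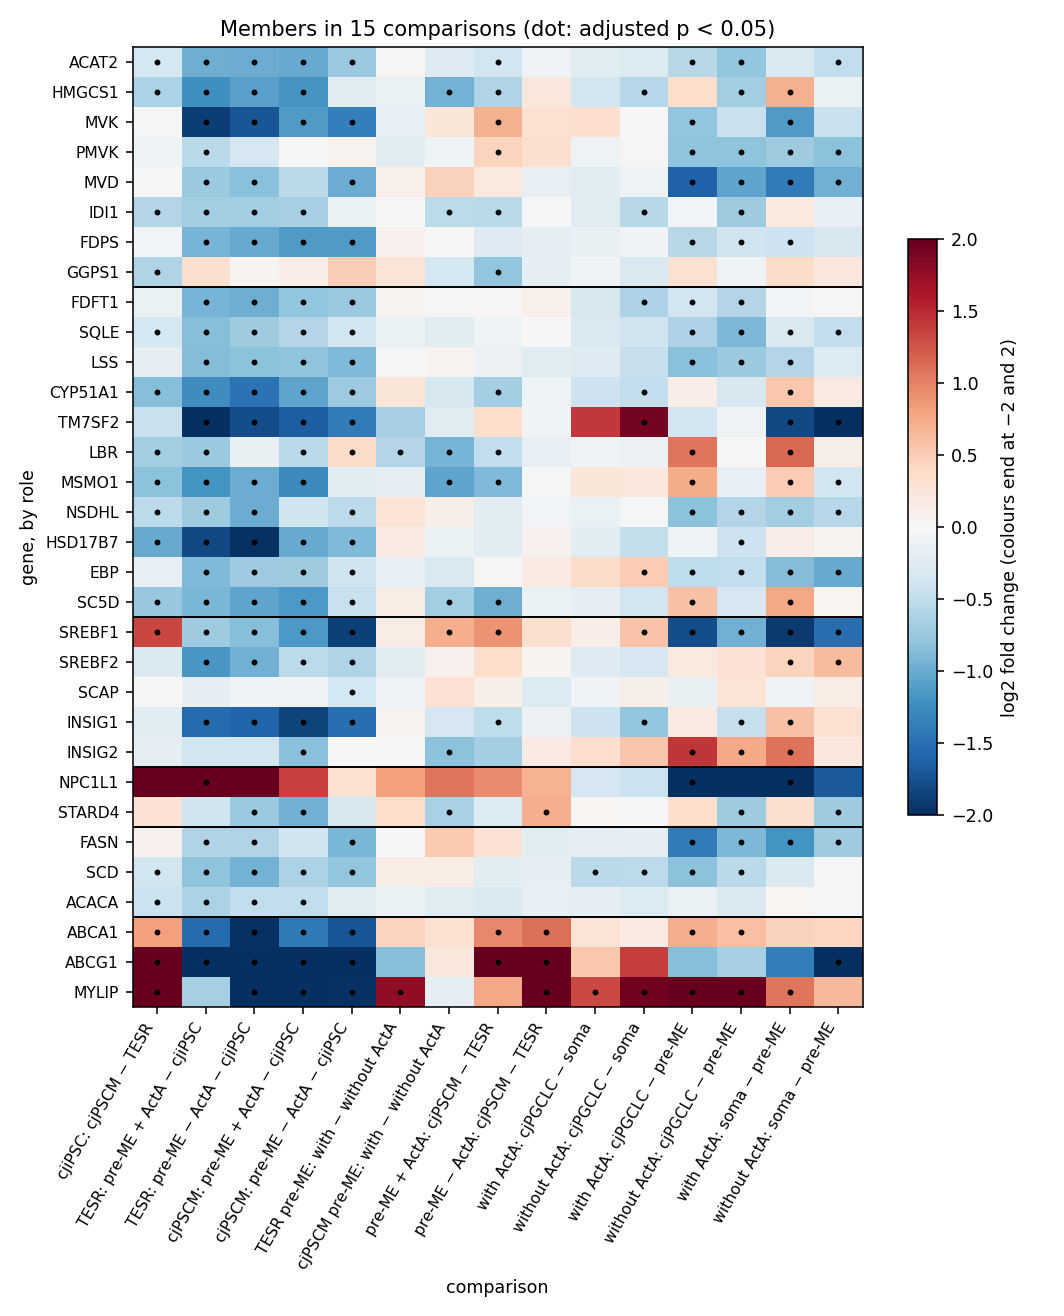
Colours give the log2 fold change of 32 genes (rows, grouped by role) in 15 comparisons (columns), with the scale ending at -2 and 2 and a dot for an adjusted p under 0.05. The 4 columns of pre-ME against cjiPSCs, next to the leftmost one, are blue in most rows, whereas the 2 columns of cjPGCLCs against soma hold 2 and 10 dots.

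The media of the stem cells were compared to see whether the pathway differed before any induction. In cjPSCM cjiPSCs 13 of the 32 genes were lower and 4 were higher than in TESR cjiPSCs, in a comparison in which 36.2% of all genes were called, 18.1% in each direction. The 13 were 11 of the 19 synthesis enzymes with SCD and ACACA, and no enzyme was higher. The median log2 fold change of the enzymes was -0.45, against -0.000438 over all genes tested. HSD17B7 was the lowest, at 1299.9 and 1087 normalised counts against 2049.8 and 2719 (log2 fold change -1.01, SE 0.14, adjusted p = 4.06e-05). CYP51A1 followed with 2172 and 2117 against 3894 and 3766 (-0.86, SE 0.13, adjusted p = 6.51e-05), then MSMO1 (-0.81), SC5D (-0.75), LBR (-0.69), HMGCS1 (-0.64) and IDI1 (-0.59), whose calls were kept in every fit without a library. Without TESR cjiPSC replicate 2 the calls of NSDHL (-0.34), ACAT2 (-0.32), SQLE (-0.18) and SCD (-0.28) were lost, without TESR cjiPSC replicate 1 those of GGPS1 (-0.20) and ACACA (-0.26). Leaving out cjPSCM cjiPSC replicate 1 removed the calls of SQLE (-0.33) and ACACA (-0.26), and replicate 2 those of ACAT2 (-0.30), GGPS1 (-0.48), SQLE (-0.35) and SCD (-0.21). The count of called members was 14 without TESR cjiPSC replicate 2 and 13 without cjPSCM cjiPSC replicate 2. SREBF2, at 5728 and 5372 against 5881 and 7576, and INSIG1, at 635 and 766 against 714 and 882, did not pass the test. Markers of other cells differed between the media too. The summed level of the 5 listed pre-ME markers, all found, was 399 to 597 in TESR cjiPSCs and 10.4 to 18.8 in cjPSCM cjiPSCs, where TBXT was at 0, and most of it in TESR was EOMES, at 329 to 536 against 1.48 to 4.71. The sum of the 3 markers of amnion or surface ectoderm was 858 to 1361 in TESR and 437 to 690.4 in cjPSCM. Of these only ISL1 was clear of overlap, at 379 to 395 against 99.3 to 183. GATA3 was at 461 to 949 against 295 to 495, and TFAP2A at 17.9 to 18.2 against 12.2 to 43.0. The sum of the 6 somatic and mesenchymal markers was 1498 to 2417 and 189 to 1423. The part of such cells in the difference between the media was not tested.

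The 4 genes that were higher in cjPSCM, fewer than the 18.1% of all genes called higher would give, were the 3 listed genes of export and the LXR response and SREBF1, a listed regulator. SCD and FASN, which LXR is also known to activate, were not called higher. SCD was called lower, at 7378 and 8947 normalised counts against 9617 and 11135, and FASN did not pass (log2 fold change 0.08, adjusted p = 0.791). ABCG1 was at 1204 and 379 normalised counts against 19.8 and 8.93, a log2 fold change of 5.60 (SE 0.58, adjusted p = 1.35e-06). From the pooled reads, 1534 and 42, the ratio of levels was 52.3 (38.5 to 72.9). MYLIP was at 312 and 107 against 43.5 and 41.7 (2.29, SE 0.37, adjusted p = 0.000121), SREBF1 at 2898 and 2772 against 943 and 1291 (1.33, SE 0.16, adjusted p = 5.72e-06), and ABCA1 at 3445 and 2934 against 2146 and 1386 (0.82, SE 0.19, adjusted p = 0.00301). In all 4 genes both cjPSCM libraries were above both TESR libraries. ABCG1 and MYLIP were the members past a log2 fold change of 2, against 9.18% of all genes. Replicate 1 of cjPSCM was the higher one in all 4 genes. Without it the log2 fold changes were 4.51 for ABCG1, 1.27 for MYLIP, 1.29 for SREBF1 and 0.68 for ABCA1, and without replicate 2 they were 6.20, 2.86, 1.39 and 0.95. All 8 values had an adjusted p under 0.05, but MYLIP was past a log2 fold change of 2 only with replicate 1. NPC1L1, with 1 and 1 reads in TESR and 1 and 11 in cjPSCM, did not pass.

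**Figure D4:**
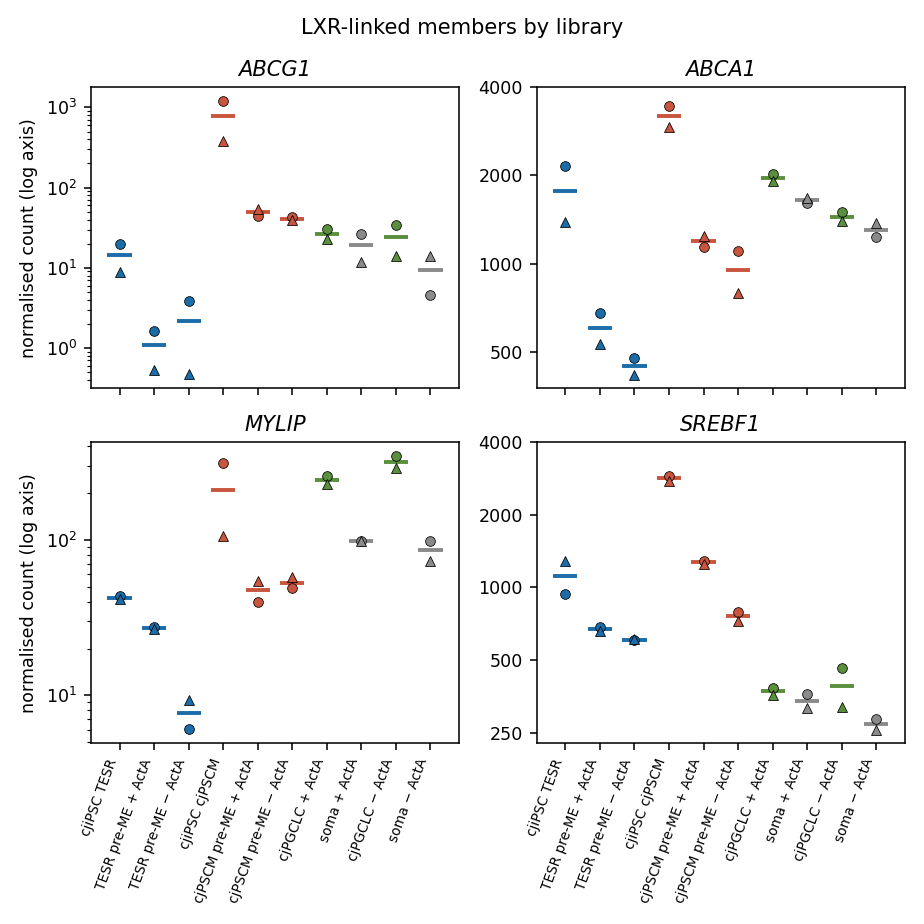
Normalised counts (vertical axes, log scale) of ABCG1, ABCA1, MYLIP and SREBF1 are shown for every library, with circles and triangles for replicates 1 and 2 and bars for condition means. ABCG1, ABCA1 and SREBF1 are highest in cjPSCM cjiPSCs, where ABCG1 reaches 1204 and 379, and MYLIP is high again in cjPGCLCs at 229 to 347.

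Whether the fall at pre-induction differed between the media was tested as an interaction. A positive value means that the fall was smaller in cjPSCM cultures. With ActA 1 of the 32 genes passed, against 6.20% of all genes, and this was HSD17B7 (interaction 0.80 on the log2 scale, SE 0.20, adjusted p = 0.0278). Without ActA 5 passed, against 6.54%. HSD17B7 (1.09, SE 0.20, adjusted p = 0.00417), HMGCS1 (0.86, adjusted p = 0.0174), MSMO1 (0.78, adjusted p = 0.017) and CYP51A1 (0.75, adjusted p = 0.019) fell less in cjPSCM cultures, and SREBF1 fell more (-1.01, SE 0.22, adjusted p = 0.0113). These are genes that already differed between the media in cjiPSCs, the 4 enzymes lower and SREBF1 higher in cjPSCM. The cjiPSC libraries enter both comparisons, so the 2 results are not independent. Only HSD17B7 without ActA kept its call in every fit that left out a library. HSD17B7 with ActA lost it in 4 such fits, with values of 0.61 to 0.83, and SREBF1 without cjPSCM pre-ME − ActA replicate 2 (-0.94, adjusted p = 0.0593). HMGCS1, MSMO1 and CYP51A1 each lost it without TESR cjiPSC replicate 1 (0.76, 0.64 and 0.71), cjPSCM pre-ME − ActA replicate 2 (0.77, 0.69 and 0.72) or TESR pre-ME − ActA replicate 1 (0.77, 0.73 and 0.65). For ABCG1 the interaction was -0.25 with ActA and -1.34 without, and neither was called. With 4 and 8 reads in TESR pre-ME, a difference could have been missed at this depth.

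**Figure D5:**
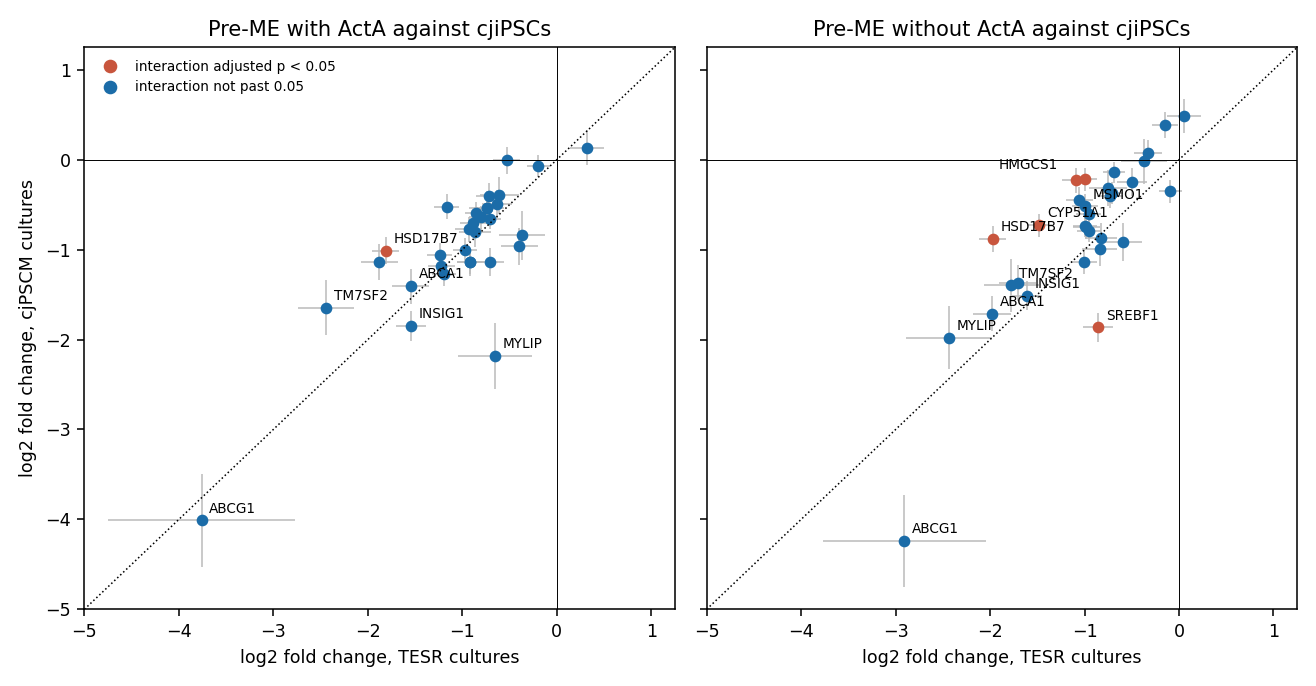
Each point is a gene, with its log2 fold change from cjiPSCs to pre-ME in TESR cultures on the horizontal axis and in cjPSCM cultures on the vertical axis, bars of 1 SE, and the dotted line of equal change. NPC1L1 is left out for its 2 reads in TESR cjiPSCs. Most genes lie below 0 on both axes, and the genes in red passed the interaction test, 1 with ActA (left) and 5 without (right).

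ActA was the only agent that differed between the 2 kinds of pre-ME. In TESR pre-ME 2 of 32 genes were called, 1 in each direction, against 8.84% of all genes called, 5.63% higher and 3.20% lower. MYLIP was higher with ActA, at 27.4 and 26.5 against 6.03 and 9.36 (log2 fold change 1.78, SE 0.45, adjusted p = 0.0184), and LBR was lower, at 842 and 917 against 1249 and 1392 (-0.59, SE 0.14, adjusted p = 0.0135). The groups did not overlap in either gene. MYLIP lost its call without any of the 4 libraries (1.52 to 2.14), and LBR without TESR pre-ME − ActA replicate 2 (-0.50) or TESR pre-ME + ActA replicate 1 (-0.53) or 2 (-0.65). In cjPSCM pre-ME 8 of 32 were called, 7 of them lower with ActA and 1 higher, against 20.9% of all genes called, 9.54% lower and 11.4% higher. Lower calls thus prevailed among the members but not among all genes. MSMO1 was at 718 and 868 with ActA and at 1508 and 1721 without (-1.05, SE 0.13, adjusted p = 7e-05). HMGCS1 (-0.95, adjusted p = 0.000365) and LBR, at 637 and 624 against 1231 and 1132 (-0.93, adjusted p = 0.000468), completed the calls that no single library decided. LBR was thus the member that was lower with ActA in pre-ME of both media.

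INSIG2 (-0.83), SC5D (-0.70), STARD4 (-0.65) and IDI1 (-0.52) were lower in cjPSCM pre-ME with ActA, and SREBF1 was higher (0.72, SE 0.16, adjusted p = 0.00502). All 5 lost the call without cjPSCM pre-ME + ActA replicate 1 (-0.54, -0.56, -0.51, -0.44 and 0.69) and without cjPSCM pre-ME − ActA replicate 2 (-0.76, -0.61, -0.55, -0.47 and 0.65). INSIG2 lost it as well without cjPSCM pre-ME − ActA replicate 1 (-0.93), and STARD4 without cjPSCM pre-ME + ActA replicate 2 (-0.79). ABCG1 and ABCA1 did not pass in either medium. Marker sums differed with ActA too. In TESR pre-ME the 6 somatic and mesenchymal markers summed to 1898.5 to 2787 with ActA and 536 to 749 without. The 3 amnion or surface ectoderm markers summed to 1502 to 1756 and 630 to 707. In cjPSCM pre-ME these sums were 970 to 1378 against 423 to 446, and 913 to 966 against 685 to 747. TFAP2A, 1 of the 3, was lower with ActA, at 14.2 to 24.2 in both media against 62.2 to 198 without. The part of such cells was not tested.

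In pre-ME, 3 of the 4 members that were higher in cjPSCM cjiPSCs were called higher in cjPSCM cultures with ActA and 3 without. With ActA 14 members differed between pre-ME from cjPSCM and from TESR cultures, 5 higher and 9 lower in cjPSCM, against 27.4% of all genes called, 13.2% higher and 14.2% lower. ABCG1 was at 44.2 and 54.8 against 1.64 and 0.531, a ratio of pooled levels of 44.7 (16.9 to 167). ABCA1 was at 1142 and 1241 against 679 and 531 (log2 fold change 0.96, SE 0.20, adjusted p = 0.00197), and SREBF1 at 1292 and 1251 against 685 and 662 (0.90, SE 0.16, adjusted p = 0.000565). SC5D, at 256 and 313 against 558 and 546 (-0.98, SE 0.15, adjusted p = 0.000186), MSMO1 (-0.89) and CYP51A1 (-0.67) were lower in cjPSCM pre-ME. The calls of these 6 genes were kept in all fits without a library, and those of the 8 others were each lost in at least 1. Of these MVK (0.71) and PMVK (0.44) were higher, and GGPS1 (-0.79), HMGCS1 (-0.60), IDI1 (-0.55), INSIG1 (-0.51), LBR (-0.49) and ACAT2 (-0.39) lower, in cjPSCM pre-ME. Without cjPSCM pre-ME + ActA replicate 1 the count of calls was 7. MYLIP, at 40.1 and 54.8 against 27.4 and 26.5, did not pass (adjusted p = 0.157). Marker sums differed too, with lower values in cjPSCM pre-ME. The 5 pre-ME markers summed to 622 to 935 against 1795 to 1957. The 3 of amnion or surface ectoderm summed to 913 to 966 against 1502 to 1756. The 6 somatic and mesenchymal ones summed to 970 to 1378 against 1898.5 to 2787. The part of such cells was not tested.

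Without ActA 4 members differed, all higher in cjPSCM, against 14.0% of all genes called, 8.08% higher and 5.96% lower, and no synthesis enzyme was called in either direction. ABCG1 was at 42.4 and 39.6 against 3.84 and 0.468, a ratio of 20.5 (10.05 to 48.6). MYLIP was at 48.9 and 57.5 against 6.03 and 9.36 (2.75, SE 0.44, adjusted p = 0.000306), and ABCA1 at 1104 and 794 against 475 and 418 (1.09, SE 0.20, adjusted p = 0.000907). STARD4 was higher too (0.73, adjusted p = 0.0203), but not without cjPSCM pre-ME − ActA replicate 2 (0.62) or TESR pre-ME − ActA replicate 1 (0.66) or 2 (0.81). SREBF1, at 792 and 727 against 603 and 613, did not pass (0.32, adjusted p = 0.196). The pre-ME markers summed to 186 to 241 in cjPSCM and 1306 to 1389 in TESR. The somatic and mesenchymal ones summed to 423 to 446 and 536 to 749, and the sums of amnion or surface ectoderm overlapped. The part of such cells was not tested.

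From pre-ME to day 4 the members moved in both directions, in comparisons in which 48.4% and 40.0% of all genes were called in cjPGCLCs with and without ActA and 48.0% and 42.2% in soma. In cjPGCLCs 6 members were higher and 14 lower than in pre-ME with ActA, against 25.3% of all genes higher and 23.0% lower, and 3 were higher and 17 lower without ActA, against 21.5% and 18.5%. In soma 9 were higher and 12 lower with ActA, against 23.8% and 24.2% of all genes, and 1 was higher and 12 lower without, against 20.6% and 21.7%. These comparisons share their pre-ME libraries in pairs. Day 4 cells had been in embryoid bodies with other factors and were sorted, so time, culture and sorting cannot be told apart. Markers of other cells moved at the same step. The summed level of the 6 listed somatic and mesenchymal markers was 423 to 1378 normalised counts in cjPSCM pre-ME and 10020.3 to 18703 at day 4, and that of 3 listed markers of amnion or surface ectoderm, all found, was 685 to 966 and then 4744 to 7121. The part of such cells in the day 4 changes was not tested. Of the 19 synthesis enzymes, 3 were higher and 10 lower in cjPGCLCs with ActA, 12 were lower and none higher without, 5 were higher and 9 lower in soma with ActA, and 8 were lower and none higher without.

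The members that follow were called lower in each day 4 comparison, and since these share libraries their values are set side by side only. SREBF1 was at 1292 and 1251 normalised counts in pre-ME + ActA and at 383 and 358 in their cjPGCLCs (log2 fold change -1.77, SE 0.16, adjusted p = 4.3e-07), and at 361 and 318 in soma (-1.91). Without ActA it fell from 792 and 727 to 463 and 318 in cjPGCLCs (-0.96) and to 286 and 255 in soma (-1.52). MVD went from 3168 and 2878 to 947 and 1028 in cjPGCLCs with ActA (-1.61, SE 0.19, adjusted p = 4.66e-06), and its other log2 fold changes lay between -1.41 and -0.96. FASN went from 15662 and 14224 to 5622 and 5721 in cjPGCLCs with ActA (-1.39, SE 0.21, adjusted p = 5.3e-05). In the other 3 comparisons FASN fell by 0.71 to 1.20, and its call in soma without ActA was lost without cjPSCM pre-ME − ActA replicate 1 (-0.43) or soma − ActA replicate 1 (-0.68). PMVK (-0.83 to -0.71), SQLE (-0.89 to -0.31) and NSDHL (-0.82 to -0.57) were called lower in all 4 too, and EBP fell by 0.50 to 1.00. The weakest of these, SQLE in soma with ActA (-0.31), lost its call without any of the 4 libraries (-0.39 to -0.25). EBP in cjPGCLCs lost its calls without the second pre-ME replicate (-0.44 with ActA and -0.39 without), and also without cjPGCLC + ActA replicate 1 (-0.48) and cjPGCLC − ActA replicate 2 (-0.44). NSDHL in soma without ActA lost its call without soma − ActA replicate 2 (-0.44). TM7SF2 was called lower only in soma, where it went from 70.9 and 82.9 to 24.8 and 19.4 with ActA (-1.80, adjusted p = 0.00143) and from 96.1 and 82.2 to 27.7 and 18.6 without (-2.02, adjusted p = 0.000699). In cjPGCLCs it did not pass, and the difference between the fractions is given with the sort below.

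LBR, the reductase of the same step, rose with ActA in cjPGCLCs from 637 and 624 to 1379 and 1275 (1.08, SE 0.15, adjusted p = 1.96e-05) and in soma to 1333 and 1468 (1.15, adjusted p = 1.11e-05). Without ActA it was at 1231 and 1132 in pre-ME already, and its log2 fold changes of 0.01 and 0.12 did not pass. MSMO1 and SC5D, which were also lower in pre-ME with ActA, rose there in cjPGCLCs (0.74 and 0.59) and in soma (0.50 and 0.78), but the SC5D call in cjPGCLCs and the MSMO1 call in soma were lost without cjPSCM pre-ME + ActA replicate 1 (0.45 and 0.37). Without ActA MSMO1 was called lower in soma, at 1319 and 1213 against 1508 and 1721 (-0.38, adjusted p = 0.0278), but not without cjPSCM pre-ME − ActA replicate 2 (-0.30) or soma − ActA replicate 1 (-0.45) or 2 (-0.35). HMGCS1 rose in soma with ActA (0.72, adjusted p = 0.000697) and fell in cjPGCLCs without ActA (-0.70, adjusted p = 0.00111). INSIG2 rose in cjPGCLCs with ActA from 55.9 and 84.3 to 213 and 155 (1.43, SE 0.26, adjusted p = 0.000304). Its other calls, 0.77 in cjPGCLCs without ActA and 1.09 in soma with ActA, were lost without any of the 4 libraries in the first case (0.66 to 0.82) and without cjPSCM pre-ME + ActA replicate 1 in the second (0.80). SREBF2 was higher than in pre-ME in soma, by 0.45 with ActA and by 0.64 without (adjusted p = 0.0113 and 0.0013). The call with ActA was lost without cjPSCM pre-ME + ActA replicate 2 (0.39) or soma + ActA replicate 1 (0.42).

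Of the export and LXR response genes, MYLIP had the largest rise. It went from 40.1 and 54.8 to 259 and 229 in cjPGCLCs with ActA (2.39, SE 0.37, adjusted p = 6.57e-05) and from 48.9 and 57.5 to 347 and 290.0 without (2.58, SE 0.35, adjusted p = 2.82e-05). In soma it was at 99.2 and 98.4 with ActA (1.08, adjusted p = 0.0311), a call that was lost without any of the 4 libraries (0.84 to 1.27), and at 99.2 and 72.7 without, which did not pass. ABCA1 rose in cjPGCLCs, from 1142 and 1241 to 2018 and 1909.5 with ActA (0.73, SE 0.19, adjusted p = 0.00556) and from 1104 and 794 to 1495 and 1399 without (0.60, adjusted p = 0.0218). The first call was lost without cjPSCM pre-ME + ActA replicate 1 (0.67), and the second without cjPSCM pre-ME − ActA replicate 2 (0.36) or cjPGCLC − ActA replicate 1 (0.53) or 2 (0.62). ABCG1 was not called higher. It was at 22.7 to 30.4 in cjPGCLCs with ActA and at 34.2 and 14.2 without, and was called lower only in soma without ActA, at 4.61 and 13.9, from 2 and 9 reads (-2.05, adjusted p = 0.0411), a call lost without any of the 4 libraries (-3.18 to -1.59). NPC1L1 fell with ActA to 2.84 to 4.47 in the sorted cells, which is 2 to 4 reads a library, and its calls there (-2.55 and -2.21) were lost in 3 and 4 of the 4 fits without a library (-2.70 to -2.08).

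The sort compared cjPGCLCs with soma from embryoid bodies of the same pre-ME, and 2 members differed with ActA and 10 without. With ActA 2 of 32 members were called, 1 in each direction, against 4.84% of all genes called, 3.68% higher and 1.16% lower, and no synthesis enzyme was among them. MYLIP was at 259 and 229 in cjPGCLCs and at 99.2 and 98.4 in soma (log2 fold change 1.31, SE 0.35, adjusted p = 0.0393). SCD was lower in cjPGCLCs, at 2877 and 2966 against 4409 and 4099.6 (-0.53, SE 0.13, adjusted p = 0.0213). The groups did not overlap, but both calls were lost without any of the 4 libraries, at 1.22 to 1.39 and -0.58 to -0.48. Without ActA 10 members were called, 4 higher and 6 lower in cjPGCLCs, against 9.63% of all genes called, 6.67% higher and 2.96% lower. MYLIP, at 347 and 290.0 against 99.2 and 72.7 (1.93, SE 0.36, adjusted p = 0.00215), and TM7SF2, at 100.2 and 64.6 against 27.7 and 18.6 (1.92, SE 0.41, adjusted p = 0.00515), were the largest. With ActA TM7SF2 was at 60.9 and 55.5 in cjPGCLCs and at 24.8 and 19.4 in soma, but its log2 fold change of 1.42 did not pass (adjusted p = 0.0572). Lower in cjPGCLCs were INSIG1 (-0.77), FDFT1 (-0.61), HMGCS1 (-0.57), IDI1 (-0.55), SCD (-0.52) and CYP51A1 (-0.50), and SREBF1 (0.57) and EBP (0.51) were higher. None of the 10 calls was kept in every fit without a library. MYLIP lost it without soma − ActA replicate 2 (1.70, adjusted p = 0.0583) and TM7SF2 without soma − ActA replicate 2 (1.62) or cjPGCLC − ActA replicate 1 (1.53). The 8 others lost it in 2 to 4 of the 4 fits, and the count of calls was then 1 to 4.

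No difference of the sort between + ActA and − ActA was called in a member by edgeR's interaction test, in which 0.0633% of all genes passed. None of the 32 had an unadjusted p under 0.05 either, and DESeq2 called 0 as well. Markers of other cells also differed between the fractions. Endoderm and yolk sac cells are known to make lipoproteins, and 4 of 5 listed markers of them were found. FOXA2 was at 83.9 to 192 with ActA and at 356 to 518 without, against 0 to 4.61 in soma, and APOA1 was at 324 to 1773 against 122 to 168. The summed level of the 4 was 409 to 1129 in cjPGCLCs with ActA and 1185 to 2324 without, against 122 to 173 in soma, whereas AFP and TTR were at most 19.7. The part of such cells in the differences of MYLIP and TM7SF2 was not tested. The summed level of 6 listed somatic and mesenchymal markers, all found, was 10020.3 to 15448 in cjPGCLCs and 14052 to 18703 in soma. With ActA HAND1 was at 2135 to 2858 in cjPGCLCs and at 3497 to 3934 in soma, COL1A1 at 1632 to 2318 and at 5294 to 5502, and HOXD4 at 0 to 5.69 and at 8.94 to 12.4. Without ActA COL1A1 was at 438 to 460.2 and at 2285 to 2469, COL3A1 at 651 to 1234 and at 2378 to 3330, and HOXD4 at 1.52 to 3.15 and at 7.74 to 20.8. These were lower in cjPGCLCs with no overlap. PDGFRA overlapped in both arms, at 3660 to 7781 in cjPGCLCs and at 3481 to 8217 in soma, as did COL3A1 with ActA and HAND1 without. HOXB6 was at 0 to 1.42 and at 2.98 to 10.6 with ActA, and overlapped without. The sum of the 3 amnion or surface ectoderm markers was lower in cjPGCLCs, at 4744 to 5477 against 6148 to 6316 with ActA. Without ActA it was 6118 to 6195 against 6372 to 7121, although TFAP2A was higher there, at 854 to 958 against 540 to 796. The part of such cells was not tested either.

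Of a wider list of 44 lipid genes that are not members, 40 could be tested. At pre-induction 10.3% to 20.1% of all genes were called lower and 7.42% to 17.9% higher. Of the 40, 18 fell and 1 rose in TESR with ActA, and 17 fell and 3 rose without. In cjPSCM 16 fell and none rose with ActA, and 18 fell and 3 rose without. Their median log2 fold changes were -0.43, -0.41, -0.47 and -0.43. ACSS2, which makes acetyl-CoA from acetate, fell the furthest in all 4, with log2 fold changes of -2.42, -2.04, -2.14 and -1.86 (adjusted p between 5.75e-07 and 7.21e-06). It was at 287 and 426 in TESR cjiPSCs and at 69.5 and 61.0 in their pre-ME with ActA. Between the media of cjiPSCs 6 of the 40 were higher and 6 lower in cjPSCM, where 18.1% of all genes were called in each direction, a share near that of the list. The largest changes were in GPAM, which starts triglyceride synthesis, at 591 and 944 against 275 and 211 (1.61, SE 0.19, adjusted p = 7.69e-06), and LIPA, the lysosomal lipase that frees cholesterol, at 33.9 and 35.6 against 143 and 58.1 (-1.62, SE 0.33, adjusted p = 0.001).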

How the data were processed

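RNA of 20 libraries from 10 conditions of DPZ_cjiPSC2 was sequenced, and groups were taken from the labels. Per the labels and the study's methods, reads were checked with FastQC 0.11.8, aligned to calJac4 with STAR 2.7.0a and counted per gene with HTSeq 0.11; the strand setting and annotation release are not given in the sources used here. The authors deposited raw counts and a normalised signal, counts divided by DESeq2 size factors. Reads outside genes (10.6% to 23.2%) and ambiguous reads (0.268% to 0.350%) stayed out of library sizes and tests.

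The tests were run on the raw counts in edgeR 4.0.16 under R 4.3.3 (TMM scaling, filterByExpr, quasi-likelihood test, 1 fit of all 10 conditions, 10 residual degrees of freedom, Benjamini-Hochberg adjustment over 15797 genes, adjusted p under 0.05). All adjusted p-values in the text are from this test, and fold changes are log2 values on the count scale. An SE is the absolute log2 fold change divided by the square root of the F value of the test. It is approximate, and unreliable for small fold changes and for genes with few reads. The common dispersion was 0.0203. Levels in the text are the deposited normalised counts, used for display and for the mean level of 19 enzymes (pseudocount 1). The 15 comparisons and 3 interactions were checked with DESeq2 1.42.0, its size factors in edgeR, no filter, a replicate block and leaving out each library. The script was tested on simulated data. Intervals are exact and cover counting error only, and p-values measure the spread between cultures of 1 clone.

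Values were given for most of the called members with the largest changes, up to 5 in each direction per comparison. They were also given for 10 set genes (HMGCS1, SQLE, INSIG1, SREBF1, SREBF2, STARD4, SCD, ABCA1, ABCG1 and MYLIP) where they bore on the comparison. Up to 2 other lipid genes in each direction were given too. For day 4 against pre-ME, no values of LSS, SCD and INSIG1 were given. Further members were named, after their values were seen, to account for the list by role. The members, lists and tests were chosen with earlier results of these data known. Python 3.11.15, pandas 2.3.3 and matplotlib 3.10.9 were used for tables and figures.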

Additional observations from a re-analysis of the deposited data

Results flagged for a closer look

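The fall from cjiPSCs to pre-ME differed between TESR and cjPSCM cultures in 5 genes by edgeR's interaction test, 1 of 32 with ActA, against 6.20% of all genes, and 5 of 32 without, against 6.54%. With ActA the difference, cjPSCM minus TESR on the log2 scale, was 0.80 in HSD17B7. Without ActA it was 1.09 in HSD17B7, 0.86 in HMGCS1, 0.78 in MSMO1, 0.75 in CYP51A1 and -1.01 in SREBF1. All 4 enzymes were already lower, and SREBF1 higher, in cjPSCM cjiPSCs. Only HSD17B7 without ActA kept its call in every fit without a library.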

How the results depend on the processing

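Of the 576 pairs of member and comparison, 238 were called, and 149 of these were called in every fit without 1 library. Leaving out cjPSCM pre-ME + ActA replicate 1 (30 changed calls) and cjPSCM pre-ME − ActA replicate 2 (26) changed the most. Leaving out a library in turn gave 0 to 1 calls for ActA in TESR pre-ME (2 with all libraries), 3 to 8 in cjPSCM pre-ME (8), 7 to 11 for pre-ME origin with ActA (14), 0 to 0 and 1 to 4 for the sort with and without ActA (2 and 10), 13 to 16 for soma against pre-ME with ActA (21), and 0 to 5 and 1 to 10 for the interactions of pre-induction with medium, with and without ActA (1 and 5). DESeq2 called 4 members in the sort with ActA and 2 in the interaction with ActA, and 2 were called there with no filter on low counts. MVD in cjiPSC media, at -0.01 and not called, was -0.35 without TESR cjiPSC replicate 1 and 0.41 without replicate 2 (adjusted p = 0.0351), and was called only in the latter fit among those without a library. The causes were not tested. DESeq2 gained 13 and lost 5 of the pairs, its size factors 1 and 5, and no filter 13 and 13.

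Replicate numbers are not stated to pair cultures, and deviations of same-numbered libraries correlated at -0.193 to 0.227. With the replicate number as a block, counts of calls were 16 for the media (17 without the block), 27, 26, 25 and 22 for pre-induction (27, 26, 25 and 23), 2 and 8 for ActA (2 and 8), 14 and 4 for pre-ME origin (14 and 4), 2 and 9 for the sort (2 and 10), 21 and 20 for cjPGCLCs (20 and 20), 23 and 14 for soma (21 and 13), and 1, 5 and 0 for the interactions (1, 5 and 0). The crossed pairing, added after seeing the data, gave 25 and 22 calls for pre-induction in cjPSCM with and without ActA and 14 for soma without ActA. Depth limits ABCG1 in TESR pre-ME and NPC1L1 throughout, with 0 to 21 reads a library.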

Other observations

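Other lipid genes moved at day 4 against cjPSCM pre-ME. ACACB, the mitochondrial acetyl-CoA carboxylase that restrains fatty acid oxidation, was at 49.2 and 47.7 normalised counts in pre-ME + ActA and at 46.6 and 35.7 in those without, against 344 and 293 in cjPGCLC + ActA, 356 and 298 in cjPGCLC − ActA, 218 and 212 in soma + ActA and 344 and 342 in soma − ActA. Its log2 fold changes in cjPGCLCs were 2.72 and 2.96 (adjusted p = 1.97e-07 and 6.31e-08). ACACB rose as FASN and SREBF1 fell. ACSS2, which was lowest in pre-ME, was at 98.5 and 103 in cjPSCM pre-ME + ActA and at 303 and 222 in their cjPGCLCs (log2 fold change 1.40, adjusted p = 5.9e-05).

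SOAT1, which esterifies cholesterol for storage, was at 275 and 367 in cjPSCM pre-ME with ActA and at 722 and 822 in those without (-1.30, adjusted p = 0.000983). It was at 1419.9 and 1430.4 in cjPGCLC + ActA, a log2 fold change of 2.17 over their pre-ME (adjusted p = 1.5e-06), and at 967 and 947 in soma + ActA (1.58). Without ActA the levels were 1504 and 1729 in cjPGCLCs and 978 and 955 in soma, and the sort difference was 0.76 (adjusted p = 0.034). LPIN1, a phosphatidate phosphatase of triglyceride synthesis, fell from 382 to 558 in pre-ME libraries of cjPSCM to 119 to 188 at day 4. The values of these genes were looked up after seeing the data, and the fits without a library were not run on them.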
